A study of Mus musculus with 4 samples.

Results

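The matrix metalloproteinases (MMPs), the ADAMTS proteases and the tissue inhibitors of metalloproteinases (TIMPs) were compared between P0 mouse prefrontal cortex (PFC) cultures with and without FGF2. Their genes were taken by name alone, as every protein-coding gene whose symbol is Mmp or Adamts followed by a number, or Timp1 to Timp4. This gave 45 of the 55421 genes listed in the deposited tables, made up of 19 Adamts, 22 Mmp and 4 Timp genes. PFC tissue of wild type C57BL/6 mice at postnatal day 0 was freed of meninges and vessels, dissociated with papain and kept in culture for 10 days. The cultures received either FGF2 at 5 ng/mL (2 libraries) or no FGF2 (2 libraries), and total RNA was sequenced. The labels name no transgene or deletion in either group. The FGF2 libraries held 9166432 and 9907613 counts on genes and the libraries without FGF2 held 10460236 and 10799886. Levels are given as CPM, which scale each count by its library's TMM-adjusted total, and 3 counts were worth 0.277 to 0.331 CPM. Where 2 pairs of values are set against each other, the FGF2 libraries come first, and replicate 1 comes before replicate 2. The study's methods describe the replicates of bulk libraries outside some human stages as technical, which as written covers these cultures. The SD thus measures only the spread between these libraries. The SE and p-values set the difference between groups against a spread estimated from the same libraries, with information shared over genes. This spread may hold no variation between cultures.

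MMPs, ADAMTS proteases and TIMPs shape the extracellular matrix. MMPs are zinc proteases, either secreted or bound to the cell surface, that cut collagens, laminins, fibronectin and many cell surface proteins. ADAMTS proteases are secreted zinc proteases with thrombospondin repeats. Several of them cut the chondroitin sulfate proteoglycans that make up much of the matrix around neurons, and others trim procollagens or fibrillin-rich fibrils. TIMPs bind the active site of MMPs and of some ADAMTS proteases, and TIMP3 stays attached to the matrix. In the brain these genes are known from cell migration, myelination, synapse remodelling and the response to injury.

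A gene was taken as measured when at least 1 library held more than 10 counts. By this rule 34 of the 45 genes were measured, which were 18 Adamts, 12 Mmp and all 4 Timp genes. The other 11 were Adamts13 and 10 Mmp genes, of which 6 were at 0 counts in every library (Mmp1b, Mmp7, Mmp10, Mmp20, Mmp25 and Mmp27). Just inside the limit were Mmp3, with at most 11 counts in a library, Mmp23 with at most 16 and Mmp12 with at most 21. Just outside it were Mmp9, with at most 8 counts, and Mmp8, with at most 4. The expression filter of edgeR kept 33 of the measured genes and removed Mmp3.

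With FGF2, 12 of these 33 tested genes rose, 12 fell and 9 did not pass the edgeR test at an adjusted p below 0.05. The shares were 36.4% higher and 36.4% lower. Over all 17144 genes tested, 40.5% passed in either direction, with 20.7% higher and 19.9% lower. The median log2 fold change was -0.01 over the 33 genes and 0.00 over all genes, and rises were as many as falls. Of 18 tested Adamts genes, 6 were higher and 9 lower (median log2 fold change -0.34). Of 11 tested Mmp genes, 4 were higher and 2 lower (median 0.30). Of the 4 Timp genes, 2 were higher and 1 lower (median 0.15). Differences between the families were not tested. By DESeq2, 10 of the 33 were higher and 6 lower, beside 23.2% of all genes in either direction. Calls lost by DESeq2 were those of the lower Adamts2, Adamts9, Adamts12, Adamts15, Adamts20 and Mmp17 and of the higher Adamts10 and Adamts14.

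A change of at least 2-fold that passed the edgeR test was seen in 6 genes, Adamts4, Timp1, Adamts1 and Adamts14 upwards and Adamts19 and Adamts18 downwards. Over all genes 7.6% met this rule. In 29 of the 33 genes the CPM of the FGF2 libraries did not overlap that of the libraries without FGF2, beside 67.1% of all genes. The 4 genes whose groups overlapped were Adamts16, Mmp2, Mmp12 and Timp2. These are bulk libraries, so fewer cells of a type and less RNA per cell cannot be told apart in any of the values given here.

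**Figure D1:**
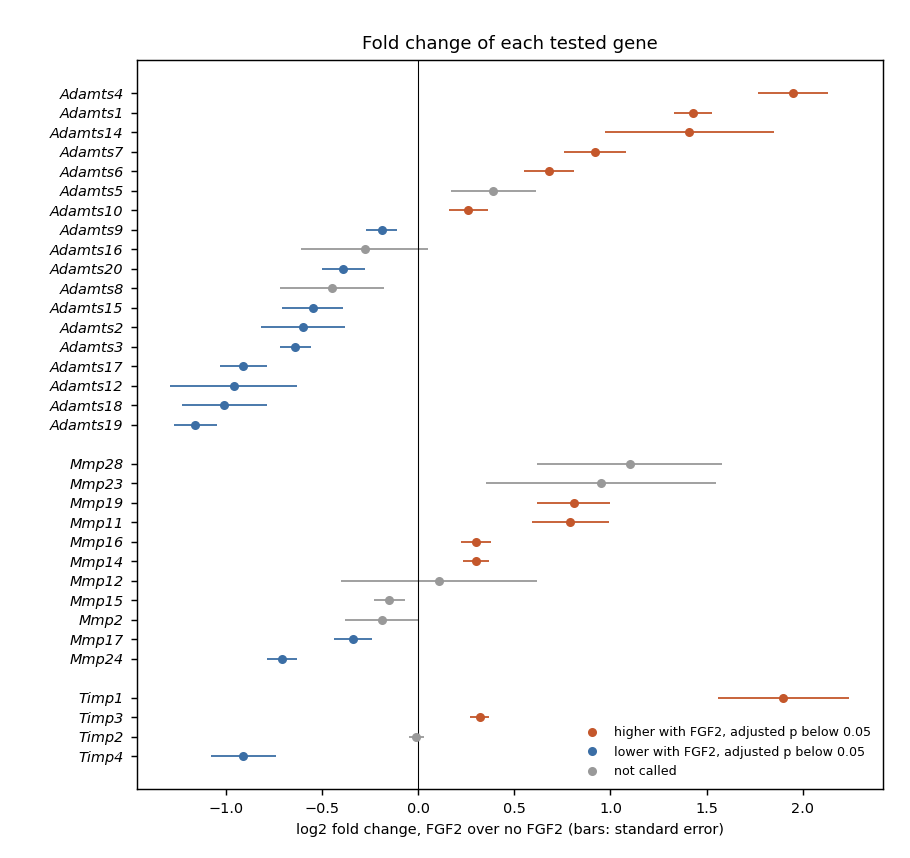
The horizontal axis gives the log2 fold change of FGF2 over no FGF2 for the 33 tested genes, grouped by family. Points are edgeR estimates and bars are 1 standard error (4 libraries). Adamts4 (1.95) and Timp1 (1.90) lie farthest to the right and Adamts19 (-1.16) farthest to the left.

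The cell types of the cultures were followed with marker lists. Of all genes tested, 20.7% were higher and 19.9% lower by edgeR. Astrocyte markers summed to 12600 to 12800 CPM with FGF2 and 7740 to 7790 CPM without it, with 8 of 10 higher and 1 lower. Oligodendrocyte lineage markers summed to 1860 to 1870 against 560 to 569 CPM, and all 9 tested of 10 were higher (median log2 fold change 2.05). Pan-neuronal markers summed to 2950 to 2980 against 4030 to 4060 CPM, with 8 of 10 lower and 1 higher. Microglia markers summed to 19.9 to 23.0 against at most 11.9 CPM in a library, with 3 of 6 tested higher. Fibroblast and mural markers summed to 67.3 to 71.7 against 61.7 to 62.7 CPM, with 2 higher and 4 lower of 9 tested (median log2 fold change -0.90). Pdgfrb alone gave 46.6 to 49.2 against 28.6 to 28.9 CPM of this sum, and the other 9 markers summed to 20.7 to 22.6 against 32.8 to 34.1 CPM. Among these 9, Rgs5 also rose, with 3.97 and 5.08 against 1.14 and 1.29 CPM (log2 fold change 1.89, edgeR adjusted p = 1.1e-05). Endothelial markers summed to 7.83 to 10.1 against 5.23 to 8.77 CPM, with 1 higher and 1 lower of 3 tested and Cldn5 at 0 in every library. Flt1 alone gave 3.66 to 5.73 against 0.571 to 0.831 CPM of this sum, while Kdr was lower (1.32 to 2.03 against 2.28 to 4.25 CPM). Mast cell, macrophage and neutrophil markers summed to 78.7 to 79.2 against 76.4 to 80.0 CPM, with 3 higher and 1 lower of 6 tested (median log2 fold change 1.43) and Ly6g and Cpa3 at 0. Kit alone gave 54.9 to 57.9 against 69.8 to 70.9 CPM of this sum, and the other 7 markers summed to 21.4 to 23.8 against 5.45 to 10.3 CPM. The part of these cell types in the protease and inhibitor results was not tested.

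Among the MMPs the largest block of genes was nearly silent. The secreted collagenase, stromelysin and matrilysin genes Mmp13, Mmp12, Mmp1b, Mmp3, Mmp10, Mmp8, Mmp27, Mmp20 and Mmp7 lie side by side at chr9:7272514-7699585 (mm10). Of these 9 genes 2 were measured, 5 had 0 counts in every library, and no library held more than 21 counts of any of them. Mmp12, the macrophage elastase, had 7 and 21 counts in the FGF2 libraries against 13 and 16. Its FGF2 libraries lay on either side of the other 2, and it did not pass the test (log2 fold change 0.11, SE 0.51, edgeR adjusted p = 0.89). Mmp3, stromelysin 1, had 1 and 11 counts with FGF2 and 0 in both libraries without FGF2. Its counts thus rest almost wholly on FGF2 replicate 2. The expression filter removed it, so it was not tested with the other genes. Without this filter it passed (log2 fold change 5.68, SE 1.89, edgeR adjusted p = 0.014), and DESeq2 gave no adjusted p. This pass rests almost wholly on the 11 counts of FGF2 replicate 2 and is not taken as a result. Mmp8, the neutrophil collagenase, had at most 4 counts, and Mmp13, collagenase 3, at most 3. The neutrophil and macrophage gene S100a8 had 29 and 40 counts with FGF2 and 0 in both other libraries, while the neutrophil marker Ly6g was at 0 throughout.

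The sequences just before the starts of these genes show what the cluster shares. In the 250 bases before each start, taken from RefSeq (GRCm38.p6, the mm10 assembly), short motifs were searched. A gene with more than 1 start was counted when any of its windows held the letters. The motifs found were the AP-1 letters TGANTCA on both strands and the TATA letters TATAAA on the gene's strand, which share no letters in the windows shown. AP-1 is the dimer of Fos and Jun proteins, a classic regulator of collagenase and stromelysin genes. The table held windows for 31 of the 45 genes. The AP-1 letters were in the windows of 7 of the 9 genes of the chromosome 9 cluster and of 0 of the 22 genes elsewhere, beside 6.75% of all 32851 windows. The TATA letters were in 6 of the 9 and in 2 of the 22 (Adamts1 and Mmp21), beside 7.59% of all windows. Both motifs occurred in 6 genes, all in the cluster. The 100 bases before the start of these 6 genes are shown 5′ to 3′, with the letters of both motifs in capitals.
Mmp13, chr9:7272414-7272513, plus strand: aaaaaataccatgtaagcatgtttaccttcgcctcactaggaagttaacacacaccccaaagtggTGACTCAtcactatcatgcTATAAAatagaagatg
Mmp1b, chr9:7388027-7388126, minus strand: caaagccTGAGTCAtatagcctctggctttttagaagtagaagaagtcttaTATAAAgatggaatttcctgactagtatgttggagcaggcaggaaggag
Mmp3, chr9:7445722-7445821, plus strand: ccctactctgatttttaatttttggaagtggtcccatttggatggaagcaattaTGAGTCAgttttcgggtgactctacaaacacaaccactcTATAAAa
Mmp10, chr9:7502242-7502341, plus strand: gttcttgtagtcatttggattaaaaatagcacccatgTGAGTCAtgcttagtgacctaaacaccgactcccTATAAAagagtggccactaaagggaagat
Mmp20, chr9:7628131-7628230, plus strand: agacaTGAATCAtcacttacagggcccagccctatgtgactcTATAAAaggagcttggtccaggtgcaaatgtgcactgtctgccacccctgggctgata
Mmp7, chr9:7691990-7692089, plus strand: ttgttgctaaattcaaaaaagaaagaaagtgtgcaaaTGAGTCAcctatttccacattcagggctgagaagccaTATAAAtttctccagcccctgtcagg
The AP-1 letters begin 35 bases before the start in Mmp13, 46 in Mmp3, 63 in Mmp10 and Mmp7, 93 in Mmp1b and 95 in Mmp20. The TATA letters shown begin 7 bases before the start in Mmp3, 16 in Mmp13 and 26 in Mmp7. They begin 29 bases before it in Mmp10, 49 in Mmp1b and 58 in Mmp20, so their distance to the annotated start differed between the genes. These starts are those of RefSeq and were not measured in these libraries. The CRE letters TGACGTCA (1.55% of all windows) and the ETS letters CCGGAAGT (2.88%), each searched on both strands, were in 0 of the 31. A match is a run of letters and not a shown binding site, and a window without a match says only that these letters are absent from it.

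The genes of AP-1 and ETS factors were themselves measured. Of 11 tested, 8 were higher and 1 lower with FGF2 (6 and 0 by DESeq2), beside 20.7% higher and 19.9% lower of all genes. The rises ranged from 0.17 for Etv1 to 2.29 for Junb on the log2 scale. Etv4 was lower (-0.63), and Fosb and Jund were not called. Fos had 522 and 510 counts in the FGF2 libraries against 163 and 166 (log2 fold change 1.82, SE 0.11, edgeR adjusted p = 2.2e-56). Junb had 333 and 336 against 84 and 70 counts (log2 fold change 2.29, SE 0.15, edgeR adjusted p = 9.1e-53). The 6 Mmp genes with both motifs were in the same libraries at 0 to 11 counts. No relation between the factors' genes and the cluster was tested.

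Other secreted MMPs outside the cluster were measured at low to moderate levels. Mmp11, stromelysin 3, had 12.9 and 10.4 CPM with FGF2 and 6.57 and 6.84 CPM without it. Both FGF2 libraries were the higher, and the rise passed the test (1.73-fold, log2 fold change 0.79, SE 0.20, edgeR adjusted p = 4.3e-04). Mmp19 rose to a like extent, from 7.27 ± 0.751 to 12.8 ± 1.67 CPM (SD, n = 2 libraries each; log2 fold change 0.81, SE 0.19, edgeR adjusted p = 1.3e-04). Its exons share 1001 bases with Tmem198b and Gm47093 on the opposite strand. Mmp28, epilysin, had 20 and 24 counts in the FGF2 libraries against 15 and 8, which did not pass (log2 fold change 1.10, SE 0.48, edgeR adjusted p = 0.056). Mmp21 had at most 3 counts in a library.

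The gelatinases, which cut denatured collagen and type IV collagen, were low and showed no call. Mmp2, gelatinase A, had 8.71 and 10.9 CPM with FGF2 and 12.4 and 10.1 CPM without it, and the groups overlapped (log2 fold change -0.19, SE 0.19, edgeR adjusted p = 0.44). Mmp9, gelatinase B, had 7 and 8 counts in the FGF2 libraries against 5 and 6 and was not measured by the rule. It was not tested.

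The membrane-bound MMPs carried most of the MMP transcript. Per kilobase of exon, Mmp14, Mmp15 and Mmp24 made up 25.0%, 17.2% and 15.1% of the summed MMP level with FGF2, and 20.4%, 19.1% and 24.7% without it. With the longest transcript as length, the 3 highest were Mmp14, Mmp16 and Mmp15 with FGF2 and Mmp14, Mmp24 and Mmp16 without it. Mmp14 encodes MT1-MMP, which activates pro-MMP2 at the cell surface. It lies at chr14:54431612-54445364 and had 929 and 897 counts in the FGF2 libraries against 836 and 842, that is 102 and 91.2 against 79.6 and 77.8 CPM. Both FGF2 libraries were above both others, and the small rise passed the test (1.23-fold, log2 fold change 0.30, SE 0.07, edgeR adjusted p = 1.1e-04). Mmp16, MT3-MMP, rose by the same amount, with 79.5 and 83.3 CPM against 69.3 and 62.9 CPM (log2 fold change 0.30, SE 0.08, edgeR adjusted p = 3.1e-04). This call was lost without replicate 2 of the no FGF2 group (log2 fold change 0.23, edgeR adjusted p = 0.066).

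Mmp24 moved the other way. It encodes MT5-MMP, the membrane-type MMP best known from neurons, and lies at chr2:155775342-155818366. It had 420 and 445 counts in the FGF2 libraries against 782 and 818, that is 46.3 and 45.2 against 74.4 and 75.6 CPM. Both FGF2 libraries were far below the others, and the level fell 1.64-fold (log2 fold change -0.71, SE 0.08, edgeR adjusted p = 1.8e-16). Its exons share 637 bases with BC029722 on the opposite strand, which did not pass the test (log2 fold change 0.29). Pan-neuronal markers were also lower in the FGF2 libraries, as given above.

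Mmp17, MT4-MMP, which is held by a lipid anchor, fell from 44.5 ± 1.64 to 35.2 ± 1.25 CPM (SD, n = 2 libraries each; log2 fold change -0.34, SE 0.10, edgeR adjusted p = 0.0023). It did not pass by DESeq2 (adjusted p = 0.081) or without replicate 2 of the no FGF2 group (log2 fold change -0.31, edgeR adjusted p = 0.054). Mmp15, MT2-MMP (chr8:95352268-95375080), had 59.3 and 60.9 CPM with FGF2 and 67.3 and 65.9 CPM without it. The groups did not overlap, but the difference did not pass (log2 fold change -0.15, SE 0.08, edgeR adjusted p = 0.14). Mmp23 had 4 to 16 counts and did not pass, and Mmp25 was at 0.

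The summed MMP level differed by less than the spread between libraries. It was 65.0 and 64.6 CPM per kilobase with FGF2 and 65.4 and 63.9 without it. With the longest transcript as length it was the higher with FGF2 (88.8 ± 1.07 against 84.9 ± 1.52, SD, n = 2 libraries each). The rise of Mmp14 and the fall of Mmp24 given above carry over to their ratio. The ratio of Mmp14 to Mmp24, per kilobase, was 1.74 and 1.58 with FGF2 and 0.840 and 0.809 without, a 2.01-fold difference. This ratio was 2.94 and 2.68 against 1.42 and 1.37 with the length of the longest transcript in place of all exons. Which of the 2 genes was the higher without FGF2 thus depended on the length used. With 2 libraries against 2, an exact two-sided permutation test cannot give a p below 0.333, so ratios and sums are given without a test.

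**Figure D2:**
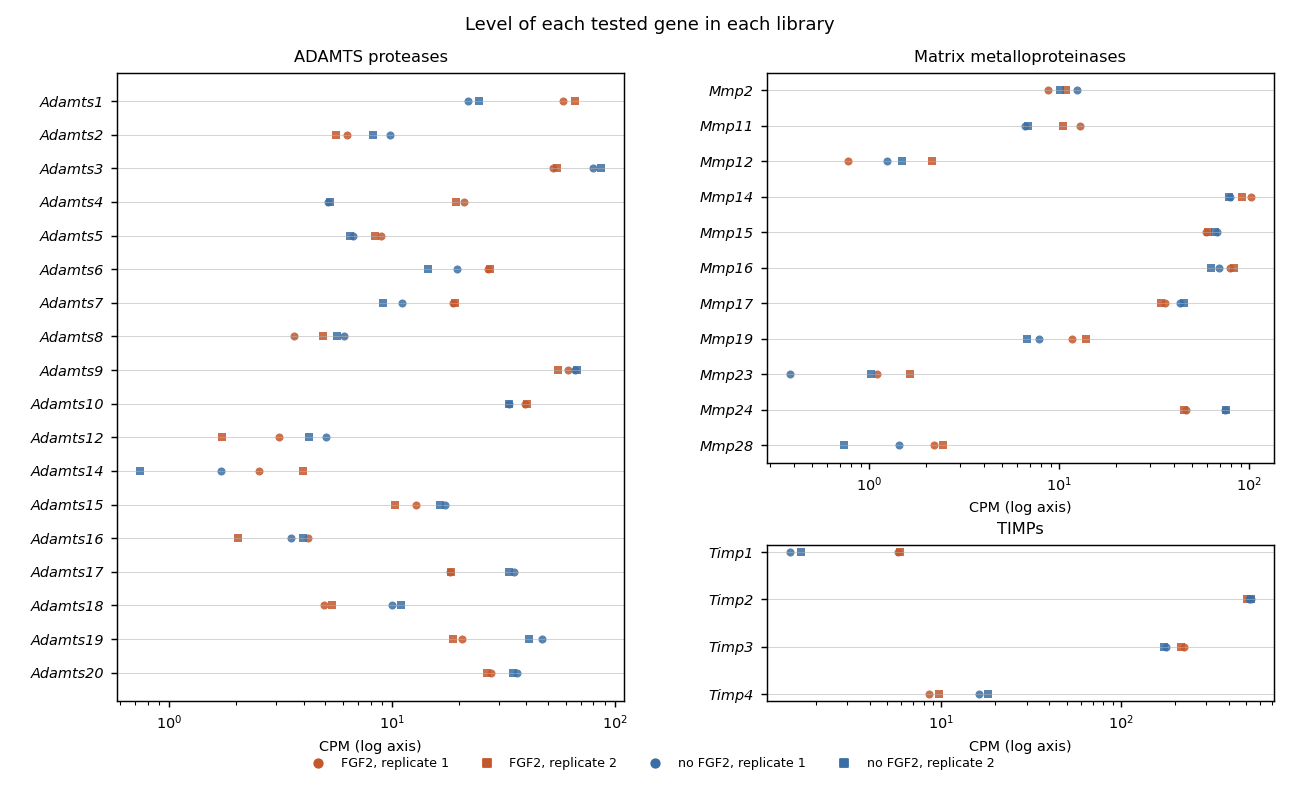
The horizontal axes give CPM on a log scale for each of the 33 tested genes, in 3 panels by family. Each point is 1 of the 4 libraries, with colour for the group and shape for the replicate. Replicates of a group lie close together for Adamts4, Adamts19 and Mmp24, and spread widely for Mmp12, Mmp23 and Adamts14.

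Among the ADAMTS proteases the proteoglycan-cleaving members were taken next. Of 7 tested, 2 were higher (28.6%), 3 lower (42.9%) and 2 did not pass, beside 20.7% higher and 19.9% lower of all genes. The 3 lower genes did not pass by DESeq2, as given below. Adamts4, aggrecanase 1, which cuts aggrecan, brevican, neurocan and versican, had the highest estimated fold change of the 33 genes, within the SE of that of Timp1. It lies at chr1:171250421-171260637 and had 190 and 191 counts in the FGF2 libraries against 54 and 57, that is 20.9 and 19.4 against 5.14 and 5.26 CPM. The replicates were nearly equal in each group, and the level was 3.87-fold higher with FGF2 (log2 fold change 1.95, SE 0.18, edgeR adjusted p = 7.0e-25). Adamts4 is known in the brain from oligodendrocytes, and 9 of 9 tested oligodendrocyte lineage markers were also higher with FGF2.

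Adamts1, which cuts aggrecan and versican, rose as well. It lies at chr16:85793827-85803113 and had 529 and 648 counts in the FGF2 libraries against 229 and 264, that is 58.3 and 65.9 against 21.8 and 24.4 CPM. All FGF2 values were above the others (2.69-fold, log2 fold change 1.43, SE 0.10, edgeR adjusted p = 2.9e-44). Of the 6 higher genes with a window in the table, Adamts1 alone held the TATA letters, 32 bases before its start. Its 100 bases before the start are shown to set it beside the Mmp cluster, with the TATA letters in capitals.
Adamts1, chr16:85803114-85803213, minus strand: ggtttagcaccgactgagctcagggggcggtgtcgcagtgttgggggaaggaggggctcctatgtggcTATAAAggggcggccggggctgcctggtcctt
Adamts5, aggrecanase 2, is the neighbour of Adamts1, and both lie within chr16:85793827-85901828. Its 81 and 82 counts against 70 and 70 did not pass the test (log2 fold change 0.39, SE 0.22, edgeR adjusted p = 0.14). The ratio of Adamts1 to Adamts5 per kilobase was 13.3 and 16.1 with FGF2 and 6.66 and 7.68 without it. The ratio of Adamts4 to Adamts5 was 5.26 and 5.23 against 1.73 and 1.83. Thus Adamts5 was the lowest of the 3 in every library, and its distance to the other two widened with FGF2.

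The other members of this group were lower or not called. Adamts15 fell from 16.8 ± 0.556 to 11.5 ± 1.78 CPM (log2 fold change -0.55, SE 0.16, edgeR adjusted p = 0.0023), and its neighbour Adamts8, with 33 and 48 counts against 64 and 61, did not pass (log2 fold change -0.45, SE 0.27, edgeR adjusted p = 0.18). The sister genes Adamts9 and Adamts20 fell slightly, by 0.19 and 0.39 on the log2 scale (edgeR adjusted p = 0.041 and 0.0017). Adamts9 lost its call without FGF2 replicate 2 (log2 fold change -0.13, edgeR adjusted p = 0.32), without replicate 1 of the no FGF2 group (-0.21, 0.12), without its replicate 2 (-0.19, 0.17) or without the expression filter (-0.19, 0.07), and Adamts15 without FGF2 replicate 2 (-0.40, 0.086). By DESeq2, Adamts15, Adamts9 and Adamts20 did not pass (adjusted p = 0.11, 0.27 and 0.072).

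Among the matrix proteins that these enzymes cut, several of the brain's proteoglycans and their partner tenascin R were higher with FGF2. Versican (Vcan) rose from 108 ± 3.87 to 179 ± 1.35 CPM, brevican (Bcan) from 315 ± 8.28 to 447 ± 11.2 CPM, and neurocan (Ncan) from 959 ± 6.47 to 1170 ± 33.1 CPM (SD, n = 2 libraries each). Tenascin R, encoded by Tnr, rose from 330 ± 3.35 to 1190 ± 11.7 CPM, while aggrecan (Acan), at 3.52 ± 0.00822 and 4.22 ± 0.358 CPM, did not pass. Over the whole list of matrix substrates, 7 of 19 tested were higher and 7 lower, beside 20.7% and 19.9% of all genes. The other 5 were not called, and the median log2 fold change of the list was -0.16. The higher ones also included fibronectin, Fn1 (log2 fold change 0.93), the laminin gene Lamc1 (0.68) and biglycan, Bgn (0.68). Those lower were led by the type I collagen genes, at low counts. Col1a1 had 14 and 20 counts in the FGF2 libraries against 92 and 83 (log2 fold change -2.18). Col1a2 had 19 and 9 against 44 and 62 counts (-1.73). Also lower were reelin, Reln (-0.66), and elastin, Eln (-0.59). The rest of the lower ones were Thbs1 (-0.54), the laminin gene Lamb1 (-0.33) and Col4a2 (-0.31). By DESeq2, Lamb1 and Col4a2 did not pass (adjusted p = 0.17 and 0.13).

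The procollagen N-proteinases Adamts2, Adamts3 and Adamts14 remove the amino-terminal propeptide of fibrillar procollagens, and ADAMTS3 also acts on VEGF-C and reelin. Adamts3 made up 29.9% of the summed ADAMTS level per kilobase without FGF2, the most of the family, and 18.6% with FGF2, below Adamts1 (22.1%). It lies at chr5:89677087-89883334 and had 476 and 538 counts in the FGF2 libraries against 838 and 940, that is 52.5 and 54.7 against 79.8 and 86.8 CPM. Both FGF2 libraries were clearly the lower (1.55-fold, log2 fold change -0.64, SE 0.08, edgeR adjusted p = 9.0e-15). Adamts2 fell from 9.01 ± 1.12 to 5.94 ± 0.488 CPM (log2 fold change -0.60, SE 0.22, edgeR adjusted p = 0.019), with no call by DESeq2 (adjusted p = 0.22), without FGF2 replicate 2 (log2 fold change -0.52, edgeR adjusted p = 0.12) or without replicate 1 of the no FGF2 group (-0.47, 0.23).

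Adamts14, the third of these enzymes, was higher at low counts. It lies at chr10:61197112-61273438 and had 23 and 39 counts in the FGF2 libraries against 18 and 8, that is 2.53 and 3.97 against 1.71 and 0.739 CPM. The groups did not overlap, but the lower FGF2 library was close to the higher library without FGF2 (log2 fold change 1.41, SE 0.44, edgeR adjusted p = 0.0042). The call was lost by DESeq2 (adjusted p = 0.12), without FGF2 replicate 2 (log2 fold change 1.04, edgeR adjusted p = 0.16) and without replicate 2 of the no FGF2 group (0.92, 0.17).

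Adamts1 rose and Adamts3 fell with FGF2, so a shift of their ratio follows from these changes and is no separate result. The ratio of Adamts1 to Adamts3 per kilobase was 1.14 and 1.23 with FGF2 and 0.280 and 0.288 without it, a 4.18-fold difference. With the longest transcript the ratio was 0.896 and 0.971 against 0.220 and 0.226, so that Adamts3 stayed the higher in all 4 libraries. Adamts10, next to these in level per kilobase with FGF2, had 39.5 and 40.4 CPM with FGF2 and 33.4 and 33.3 CPM without it. It lies at chr17:33524204-33553782, and its small rise passed by edgeR (log2 fold change 0.26, SE 0.10, edgeR adjusted p = 0.033) but not by DESeq2 (adjusted p = 0.26), with upper quartile scaling (0.059) or with any 1 of the 4 libraries left out (log2 fold change 0.24 to 0.27, edgeR adjusted p = 0.061 to 0.14). The summed ADAMTS level was 52.6 and 53.6 CPM per kilobase with FGF2 and 51.5 and 51.0 without it, and with the longest transcript it was the lower with FGF2 (72.8 ± 0.366 against 76.3 ± 0.585).

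Among the pairs of closely related ADAMTS genes, Adamts7 and Adamts12 moved apart, while others moved together. Adamts7 and Adamts12 both cut cartilage oligomeric matrix protein, whose gene Comp was not tested here. Adamts7 had 18.8 and 19.2 CPM with FGF2 and 11.1 and 9.05 CPM without it, a clear rise (log2 fold change 0.92, SE 0.16, edgeR adjusted p = 8.6e-08). Adamts12 had 28 and 17 counts in the FGF2 libraries against 53 and 46 (log2 fold change -0.96, SE 0.33, edgeR adjusted p = 0.012), and this call was lost by DESeq2 (adjusted p = 0.20), without FGF2 replicate 2 (log2 fold change -0.59, edgeR adjusted p = 0.23) and without replicate 1 of the no FGF2 group (-0.83, 0.14). The ratio of Adamts7 to Adamts12 per kilobase was 10.6 and 19.3 with FGF2 and 3.84 and 3.70 without it, which follows from these changes.

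Adamts6, the sister of Adamts10 and known with it from fibrillin microfibrils, rose from 17.0 ± 3.54 to 27.3 ± 0.391 CPM (log2 fold change 0.68, SE 0.13, edgeR adjusted p = 1.1e-06). Adamts17 and Adamts19 fell together. Adamts17, also linked to fibrillin, went from 34.3 ± 1.46 to 18.3 ± 0.155 CPM (log2 fold change -0.91, SE 0.12, edgeR adjusted p = 1.5e-12). Adamts19, a protease of little-known substrate, had 186 and 185 counts in the FGF2 libraries against 492 and 443, that is 20.5 and 18.8 against 46.8 and 40.9 CPM. Both FGF2 libraries were far below the other two (2.23-fold lower, log2 fold change -1.16, SE 0.11, edgeR adjusted p = 7.7e-23), the largest fall of the 33 genes.

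Adamts18 fell as well, and its sister Adamts16 did not pass. Adamts18 (chr8:113697126-113848738) had 45 and 53 counts in the FGF2 libraries against 105 and 118, that is 4.96 and 5.39 against 9.99 and 10.9 CPM. The groups were well apart (2.01-fold lower, log2 fold change -1.01, SE 0.22, edgeR adjusted p = 2.5e-05). Adamts16 had 38 and 20 counts against 37 and 43 (log2 fold change -0.28, SE 0.33, edgeR adjusted p = 0.54), with FGF2 replicate 2 far below the other 3 libraries. Adamts13, the von Willebrand factor protease, had 1 count in all.

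**Figure D3:**
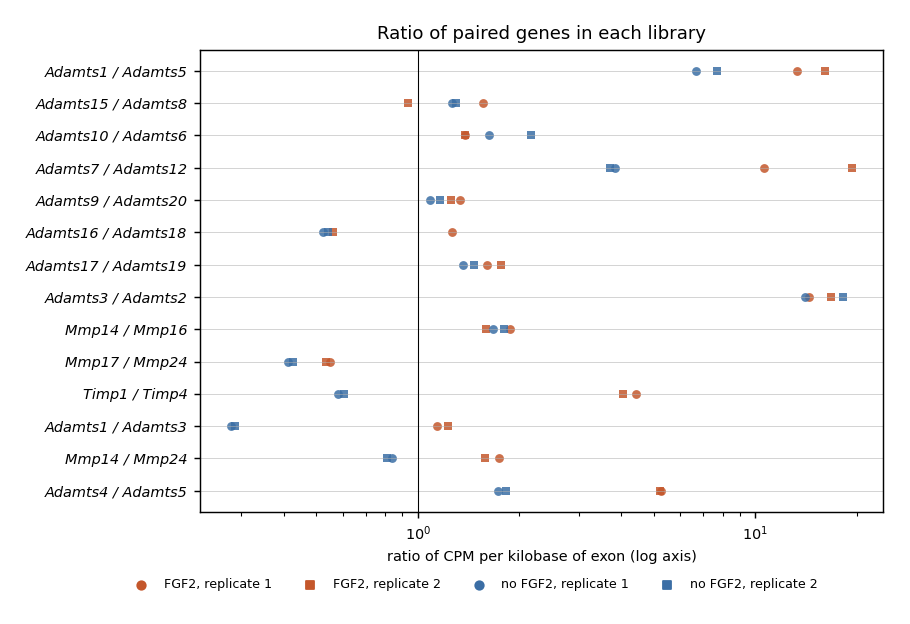
The horizontal axis gives, on a log scale, the ratio of CPM per kilobase of exon of 14 pairs of genes in each of the 4 libraries, with a line at 1. Colour marks the group and shape the replicate. The groups are farthest apart for Timp1 over Timp4 (4.05 to 4.42 with FGF2 against 0.582 to 0.606), and they overlap for Adamts3 over Adamts2, Adamts15 over Adamts8 and Mmp14 over Mmp16.

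The 4 TIMPs spanned a wide range of levels, with FGF2 from 1.55 CPM per kilobase for Timp4 to 133 for Timp2. Timp2, which inhibits MMPs and takes part in the activation of pro-MMP2 by MT1-MMP, held 79.1% of the summed TIMP level per kilobase with FGF2 and 83.6% without it. It lies at chr11:118301069-118355740 and had 4811 and 4993 counts in the FGF2 libraries against 5416 and 5753, that is 530 and 508 against 515 and 531 CPM. The groups overlapped (log2 fold change -0.01, SE 0.04, edgeR adjusted p = 0.83). Timp3, the matrix-bound TIMP that also inhibits aggrecanases and ADAM17, held 16.0% and 13.5%. It had 2029 and 2129 counts in the FGF2 libraries against 1877 and 1893, that is 224 and 216 against 179 and 175 CPM, and both FGF2 libraries were the higher (1.24-fold, log2 fold change 0.32, SE 0.05, edgeR adjusted p = 1.8e-09).

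Timp1, the TIMP known as inducible in reactive glia, was low and had the highest fold change of the 4. It had 52 and 58 counts in the FGF2 libraries against 15 and 18, that is 5.73 and 5.90 against 1.43 and 1.66 CPM. The FGF2 libraries were well above the others (3.74-fold, log2 fold change 1.90, SE 0.34, edgeR adjusted p = 2.4e-07). Of the astrocyte markers 8 of 10 were also higher in the FGF2 libraries and 1 lower, as given above. Of 6 tested microglia markers 3 were higher, and by DESeq2 only Csf1r of that list passed (adjusted p = 0.019). Timp4 fell from 17.2 ± 1.36 to 9.13 ± 0.752 CPM (SD, n = 2 libraries each; 1.88-fold, log2 fold change -0.91, SE 0.17, edgeR adjusted p = 4.1e-07). The ratio of Timp1 to Timp4 per kilobase was 4.42 and 4.05 with FGF2 and 0.582 and 0.606 without it, so that the order of the 2 genes was reversed. The order was also reversed with the longest transcript (4.15 and 3.80 against 0.546 and 0.569). A shift of this ratio follows from the rise of Timp1 and the fall of Timp4. The summed TIMP level, of which Timp2 was the most, was 171 and 165 CPM per kilobase with FGF2 and 159 and 163 without it.

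3 of the TIMP genes lie inside synapsin genes, on the opposite strand. Timp1 (chrX:20870166-20874735) lies within Syn1 with no shared exon bases, Timp3 (chr10:86300372-86349506) within Syn3 with 1733 shared exon bases, and Timp4 (chr6:115241892-115252205) within Syn2 with 90. Synapsins coat synaptic vesicles. Syn1, Syn2 and Syn3 all fell with FGF2, by 0.58, 0.66 and 0.71 on the log2 scale (edgeR adjusted p = 4.6e-29, 5.3e-42 and 1.8e-20). Timp1 and Timp3 thus rose where their host fell, and Timp4 fell with its host. The values of the tables show counting by strand, as described under the processing, so that reads of a host need not count towards the inner gene.

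**Figure D4:**
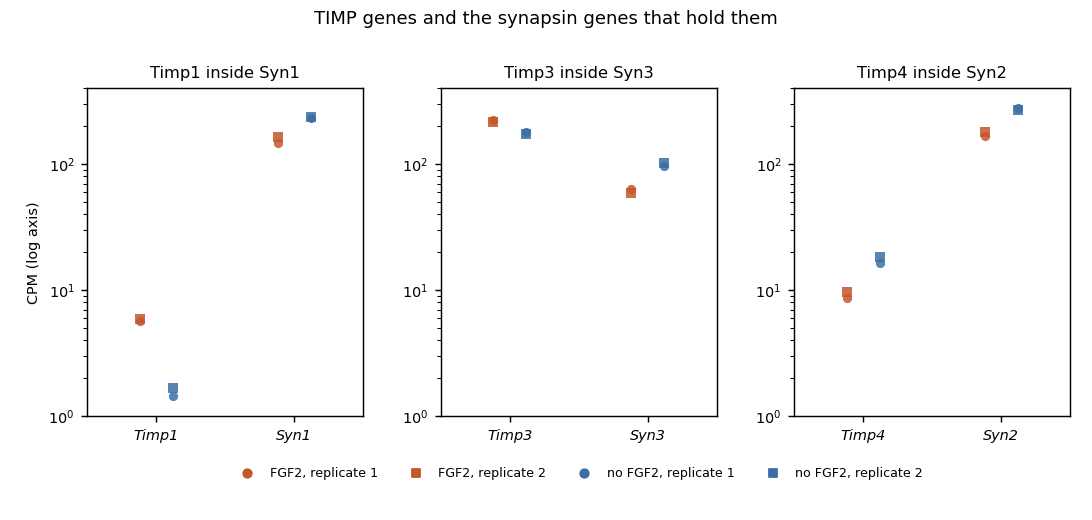
Each panel shows a TIMP gene and the synapsin gene that holds it, with CPM on a log axis and 1 point for each of the 4 libraries. Timp1 (5.73 and 5.90 against 1.43 and 1.66 CPM) and Timp3 are higher with FGF2, while Timp4, Syn1, Syn2 and Syn3 are lower.

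Protease inhibitors outside the TIMPs were measured for the same libraries. Of 10 tested, 7 were higher and 3 lower (median log2 fold change 0.59), beside 20.7% higher and 19.9% lower of all genes. By DESeq2, 6 were higher and 2 lower. The largest rise was in Serpina3n, a serine protease inhibitor known from reactive astrocytes, with 3742 and 3896 counts in the FGF2 libraries against 667 and 741 (log2 fold change 2.61, SE 0.05, with an adjusted p too small for the fit to give as a number). Serping1, the C1 inhibitor, had 402 and 403 against 78 and 85 counts (log2 fold change 2.48, SE 0.14, edgeR adjusted p = 7.4e-69). A2m, alpha-2-macroglobulin, which traps proteases of many classes including MMPs and ADAMTS4, had 5142 and 5386 against 1632 and 1600 counts (log2 fold change 1.88, SE 0.04, with an adjusted p again too small to be given). Reck, a membrane-anchored inhibitor of MMPs, rose by 0.51 on the log2 scale (SE 0.13, edgeR adjusted p = 2.9e-04). The testicans Spock1, Spock2 and Spock3 fell by 0.24, 0.61 and 0.65, and Spock1 did not pass by DESeq2 (adjusted p = 0.051).

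**Figure D5:**
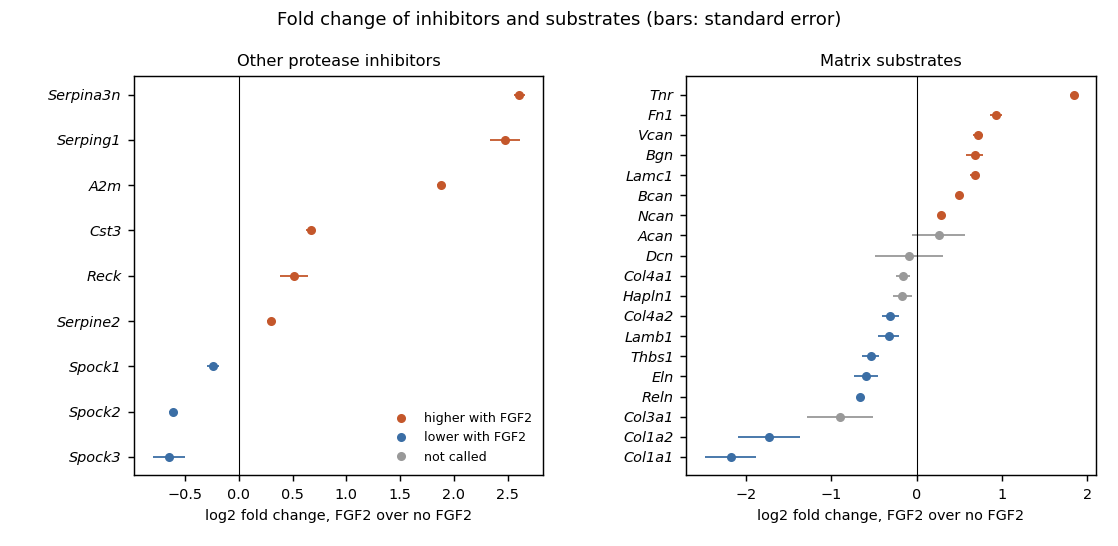
Both panels give the log2 fold change of FGF2 over no FGF2 with 1 standard error, for 9 of the 10 tested protease inhibitors outside the TIMPs and the 19 tested matrix substrates. Serpina3n (2.61), Serping1 (2.48) and A2m (1.88) lead the inhibitors, and Tnr (1.84) and Col1a1 (-2.18) mark the ends of the substrates.

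Activators and clearance receptors of the proteases were also measured. Of 10 tested, 4 were higher, 1 lower and 5 not called (median log2 fold change 0.02), beside 20.7% higher and 19.9% lower of all genes. The sheddases Adam17 and Adam10 rose by 0.58 and 0.23 on the log2 scale, and Lrp1, the receptor that takes up many proteases with their inhibitors, rose by 0.36. Furin, which cuts the propeptide of membrane-bound MMPs and ADAMTS proteases, had 52.7 ± 4.03 and 53.6 ± 1.00 CPM and did not pass (log2 fold change -0.02). The related convertases Pcsk6 and Pcsk5 changed in opposite directions (0.36 and -0.67). By DESeq2, 2 of the list were higher, and Pcsk6 and Adam10 did not pass (adjusted p = 0.19 and 0.053). Of the ADAMTS-like genes, which encode relatives without a protease domain, 3 of 6 tested were higher and 1 lower. Adamtsl4 rose from 5.29 ± 0.484 to 12.6 ± 0.181 CPM (log2 fold change 1.25, SE 0.21, edgeR adjusted p = 2.2e-08), and Adamtsl1 fell by 0.59.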

How the data were processed

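Total RNA of P0 mouse PFC cultures was sequenced in 4 libraries. Per the labels and the methods of the study, the authors mapped reads to mm10 with HISAT2 2.1.0, filtered them on mapping quality with Samtools, used HTSeq 0.11.2 to count reads on genes, and deposited raw counts without normalization. The annotation release and strand setting are not given in the sources used here. Of 501 genes covered to at least 98% by exons of the opposite strand, 164 had counts, against 4 of 693 covered by the same strand, so the counting kept strands apart. Of 55421 listed genes, 55240 matched GENCODE M21 by identifier, and 46 symbols met the naming rule, of which Mmp1a is not protein-coding and was left out (0 counts). Entries naming no gene held 44.9% to 47.3% of the tallied read pairs and were left out.

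Counts were tested with the quasi-likelihood test of edgeR 4.0.16 (R 4.3.3; TMM, its expression filter by group, robust fit, Benjamini-Hochberg adjustment over 17144 genes, threshold 0.05), and CPM use the TMM-adjusted totals. SE is the log2 fold change over the root of the F statistic. Levels of different genes are compared per kilobase of merged exons. The fits were tested on simulated data. Alternatives were DESeq2 1.42.0, limma-voom (limma 3.58.1), RLE, upper quartile and total count scaling, other filters, a threshold of 0.01, a replicate block, each library left out, and longest transcript length. Replicates differed by more than sampling noise (chi-square per degree of freedom 2.28 with FGF2, 1.76 without). With BLAST 2.17.0, 14 of the 45 genes had a stretch of at least 100 bases at 95% identity in another gene, which includes opposite-strand overlaps. Values in every library are given for genes called with at least a 2-fold change, the 3 highest per kilobase of each family (mean over both groups) and Mmp3; other genes shown so, the gene pairs and the motifs were picked after their values were seen. Some results are not reported here. The genes and lists were chosen with earlier results of these data known.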

Additional observations from a re-analysis of the deposited data

How the results depend on the processing

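Of the 24 called genes, 16 kept their call under every alternative other than a library left out, 15 also with each library left out, and 0 changed direction. The number called lower fell from 12 to 6 by DESeq2 and the number higher from 12 to 10. With a library left out, 9 to 11 genes were higher and 8 to 12 lower, and 40 to 44 genes of the surrounding lists were called, beside 45 with all libraries and 35 by DESeq2. Mmp3 passed without the expression filter, on counts almost wholly from FGF2 replicate 2, and is not taken as a result. Mmp28 passed by limma-voom (1.15, adjusted p = 0.048). Genes without a call in the report that changed sign were Mmp12 (-0.04 by limma-voom, -0.81 to 0.64 with a library left out), Adamts16 (-0.88 to 0.16 with a library left out) and Timp2 (-0.05 to 0.02 with a library left out). The cause of these changes was not tested.

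With the longest transcript as length, the summed levels with and without FGF2 were 72.8 and 76.3 CPM per kilobase for ADAMTS genes, 88.8 and 84.9 for MMP genes and 195 and 183 for TIMP genes. The shorter length raises every sum by construction. With a library left out, the sums were 52.6 to 53.6 and 51.0 to 51.5 for ADAMTS genes, 64.6 to 65.0 and 63.9 to 65.4 for MMP genes, and 165 to 171 and 159 to 163 for TIMP genes. With the replicate number as a block, 12 genes were higher and 12 lower and no call changed. Same-numbered libraries did not deviate together (r = 0.004 over 12651 genes, 2 pairs), so the numbers were not taken to pair the libraries. Depth limited the genes of few counts, and the SE was 0.60 for Mmp23 and 0.51 for Mmp12 on the log2 scale, against 0.04 for Timp2.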
